A study of Mus musculus with 8 samples.

Results

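Slc4a9, an anion exchanger gene of the Slc4 bicarbonate transporter family, was higher in all 4 livers of newborn Mfp2 knockout mice than in any of 4 wild type livers, while the other measured members, Slc4a2 and Slc4a4, overlapped between the groups. Members were all probe sets annotated to exactly 1 of the symbols Slc4a2, Slc4a4, Slc4a7 and Slc4a9, which gave 7 of the 45037 probe sets without array controls. Slc4a9 and Slc4a2 had 1 probe set each and Slc4a4 had 5. Slc4a7, an electroneutral sodium bicarbonate cotransporter gene, had 0 probe sets under its symbol or gene identifier in the annotation used here, so it has no value. The 4 genes were chosen by results already known from these arrays, among them the difference of Slc4a9 between the genotypes. Their knockout and wild type values are therefore given as a description, with no p-value for the genotype difference.

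The livers came from 8 mice aged 2 days, 4 with the genotype Mfp2 -/- and 4 labelled WT, with 1 Affymetrix array per liver. Mfp2 is the multifunctional protein 2 of peroxisomes, encoded by Hsd17b4, and the comparison asks which liver transcripts differ without it. The labels give no strain, sex, litter or treatment, and do not say how the null allele was made. Values are RMA levels on the log2 scale, and a difference is always knockout minus wild type.

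Slc4 proteins are membrane transporters that move bicarbonate, in exchange for chloride or together with sodium, and so set the acid-base balance of cells and of secreted fluids. Slc4a2 (AE2) is the chloride-bicarbonate exchanger through which bile duct cells, and hepatocytes at the canaliculus, release bicarbonate. Slc4a4 (NBCe1) and Slc4a7 (NBCn1) bring sodium and bicarbonate across the membrane. Slc4a9 (AE4) is best known from the intercalated cells of the kidney collecting duct.

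The arrays matched their labels. Hsd17b4 lay at 4.29, 3.76, 3.25 and 4.05 in knockout livers 1 to 4 and at 8.18, 8.71, 8.97 and 8.15 in wild type livers 1 to 4. Its difference was -4.66 ± 0.25 (SE), with a limma adjusted p of 0.000100. A second probe set lay at 1.73 to 3.06 in knockout and 7.80 to 8.78 in wild type livers. The position of its probes against the changed part of the gene was not given in the sources used here. Hepatocyte markers were high in both groups, with a mean over 7 of 8 listed genes between 12.46 and 12.58 in knockout and between 12.33 and 12.44 in wild type livers. The median of each array lay between 3.68 and 3.73, and a level below it is not shown to be above background. Xist was high in knockout 1, knockout 2 and wild type 3, at 8.59 to 9.28, and lay at 2.83 to 4.32 in the other 5 livers.

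Slc4a9 lay at 6.70, 7.18, 7.64 and 6.85 in knockout livers 1 to 4 and at 5.20, 4.99, 3.52 and 3.42 in wild type livers 1 to 4 (probe set 1439137_at). The groups did not overlap, and the lowest knockout liver stood 1.51 above the highest wild type liver. The knockout mean was 7.09 ± 0.41 (SD, n = 4) and the wild type mean 4.28 ± 0.94, a difference of 2.81 ± 0.41 (SE) or 7.01-fold. Wild type 3 and wild type 4 lay below the median of every array, so the fold can be an underestimate. Of all probe sets, 1 had a rise this large, which was that of Slc4a9 itself. This rank is a description only, since Slc4a9 was chosen with this difference known. Slc4a9 has a single probe set, so no second measurement of the gene on these arrays stands beside it.

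Of the 7 member probe sets, 1 passed an adjusted p of 0.05 in limma and 1 had groups that did not overlap, in both cases Slc4a9. Among all probe sets 0.762% passed and 6.9% had groups that did not overlap. Because the members were chosen with this contrast known, the member count is a description and nothing is read from it. It was 0 when either of knockout 3 and 4 or either of wild type 3 and 4 was left out, or when values under the array median were raised to it. The Slc4a9 difference lay between 2.52 and 3.11 with 1 array left out and was 2.71 with the raised values.

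**Figure D1:**
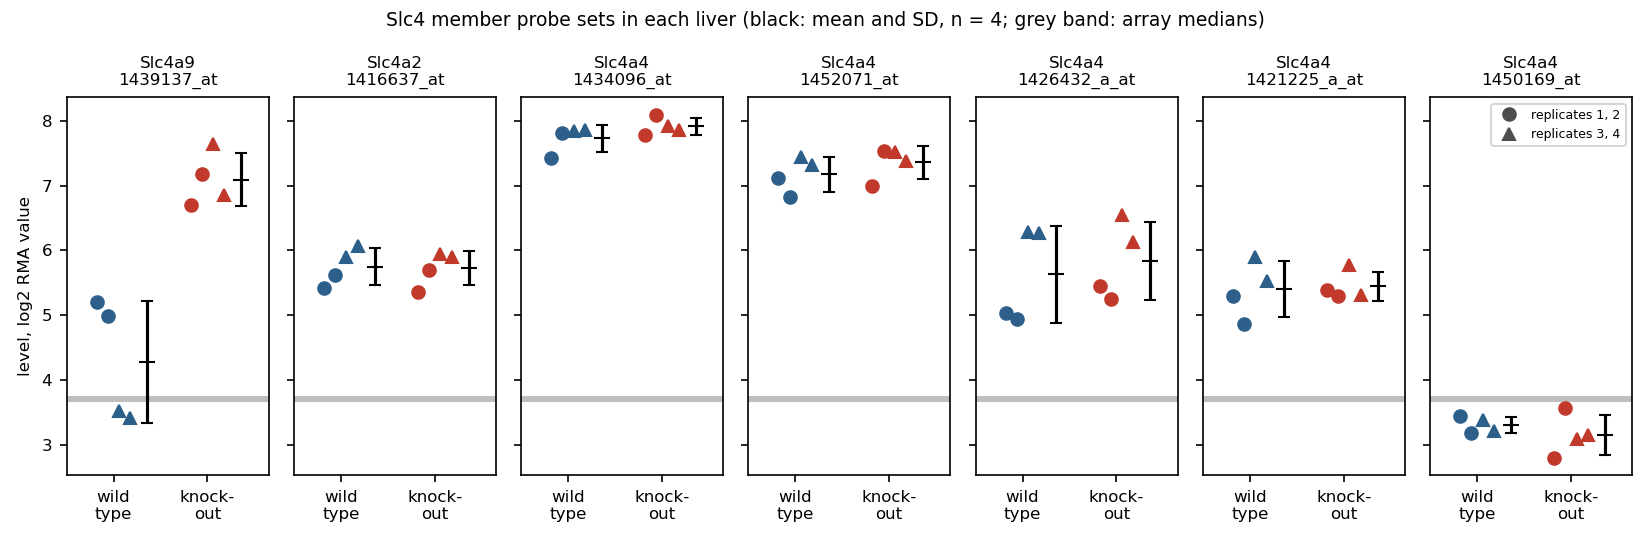
Levels (log2 RMA value, vertical axis) of the 7 member probe sets in each liver, with circles for replicates 1 and 2, triangles for replicates 3 and 4, black marks for the group mean and SD (n = 4), and a grey band for the array medians of 3.68 to 3.73. Slc4a9 separates the genotypes, with knockout livers at 6.70 to 7.64 and wild type livers at 3.42 to 5.20, while the third Slc4a4 panel (1426432_a_at) separates the replicate numbers.

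The wild type livers fell into a higher and a lower pair for Slc4a9. Replicates 1 and 2 averaged 5.09 and replicates 3 and 4 averaged 3.47, whereas the knockout livers averaged 6.94 and 7.24 in the same pairs. The wild type SD of 0.94 was exceeded or equalled by 0.502% of all probe sets. Knockout minus wild type came to 1.85 in replicates 1 and 2 and to 3.77 in replicates 3 and 4. The gap between these values, 1.93 ± 0.37 (SE), had an unadjusted limma p of 0.000751 and an adjusted p of 0.9997 over all probe sets, of which 1 passed (0.00222%). For this interaction 1926 of 45037 probe sets had an unadjusted p under 0.05, which is fewer than the 5% that chance gives on average. The split into replicates 1 and 2 against 3 and 4 was taken from earlier results of these arrays, and the labels give it no name. Every p-value for the split, here and below, is therefore a description. Xist was high in knockout 1 and 2 and low in knockout 3 and 4, so among knockout livers the split and Xist cannot be told apart. Among wild type livers only wild type 3 had high Xist.

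The Slc4a9 levels are set out here by Xist, which was high in too few livers of each genotype to compare. Among the knockout livers the pair with high Xist lay at 6.70 and 7.18 and the pair with low Xist at 7.64 and 6.85. Among the wild type livers wild type 3, the only one with high Xist, lay at 3.52. Wild type 1, 2 and 4, with low Xist, lay at 5.20, 4.99 and 3.42. The part of sex in the Slc4a9 levels was not tested.

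Slc4a2, the AE2 exchanger, lay at 5.36, 5.70, 5.95 and 5.90 in knockout livers 1 to 4 and at 5.42, 5.61, 5.89 and 6.07 in wild type livers 1 to 4. The groups overlapped almost fully, with means of 5.73 ± 0.27 (SD, n = 4) and 5.75 ± 0.29. The difference was -0.02 ± 0.17 (SE). In both genotypes replicates 3 and 4 were the higher pair, by 0.43 ± 0.11 (SE) in the fit with genotype, which did not pass over all probe sets (limma adjusted p 0.159). Markers of bile duct epithelium, the liver cell type in which AE2 is best known, were dim. Of 5 measured of 8 listed, Krt7, Sox9 and Cldn4 lay below the array median in all livers. Krt19 and Epcam, the others, lay above it in all livers. The list mean ran from 3.73 to 4.15 in knockout and from 3.79 to 3.95 in wild type livers.

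Slc4a4, the NBCe1 cotransporter, had 5 probe sets, of which 4 had a higher and 1 a lower knockout mean. The 5 differences ran from -0.15 to 0.21, and the groups overlapped at every one. In 1434096_at the knockout livers lay at 7.78, 8.10, 7.92 and 7.86 and the wild type livers at 7.42, 7.81, 7.84 and 7.85. The difference was 0.18 ± 0.12 (SE), and wild type 1 was the lowest liver, apart from the rest. In 1452071_at the knockout livers lay at 7.00, 7.54, 7.52 and 7.39 and the wild type livers at 7.12, 6.82, 7.44 and 7.31, a difference of 0.19 ± 0.16. Knockout 1 was the lowest knockout liver in both of these probe sets.

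The probe set 1426432_a_at of Slc4a4 followed the replicate numbers rather than the genotypes. It lay at 5.45, 5.24, 6.54 and 6.13 in knockout livers 1 to 4 and at 5.04, 4.94, 6.29 and 6.27 in wild type livers 1 to 4. All 4 livers of replicates 3 and 4 were above all 4 livers of replicates 1 and 2, by 1.14 ± 0.12 (SE) in the fit with genotype. This difference passed over all probe sets (limma adjusted p 0.00508), as did 229 probe sets in all (0.508%), and 49 of them had a p as low or lower. The split came from earlier results of these same arrays, so these p-values and counts are a description. The genotype difference of the same probe set was 0.21 ± 0.38.

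The other Slc4a4 probe sets did not pass for the replicate split, with limma adjusted p between 0.368 and 0.953. Of these 1421225_a_at lay at 5.39, 5.30, 5.78 and 5.31 in knockout livers and at 5.30, 4.86, 5.89 and 5.53 in wild type livers. Replicate 3 was highest in each genotype, and the genotype difference was 0.05 ± 0.20 (SE). The probe set 1450169_at lay below the array median in all 8 livers, at 2.80 to 3.56 in knockout and 3.18 to 3.44 in wild type livers, so it is not shown to be above background. The Slc4a4 transcripts that each probe set reads were not given in the sources used here.

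Among the 6 other Slc4 transporter genes, all with a probe set, Slc4a1 was lower in the knockout and the other 5 were dim or little different. With 1 probe set per gene, the one with the highest mean, 0 of the 6 passed in limma, against 1.15% of all 18193 genes. At an unadjusted p under 0.05 there was 1, Slc4a1. Over all 14 of their probe sets 1 passed, which was also of Slc4a1. Their median difference was 0.14, beside 0.01 over all genes.

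Slc4a1 (AE1 or band 3) is the chloride-bicarbonate exchanger of the red cell membrane. Its brightest probe set lay at 10.43, 10.86, 10.10 and 9.66 in knockout livers and at 11.25, 11.21, 11.51 and 11.31 in wild type livers. The groups did not overlap at any of its 3 probe sets. The differences were -1.05 ± 0.22 (SE) at 1416464_at, -0.95 ± 0.17 at 1434502_x_at and -1.42 ± 0.33 at 1431743_a_at, with limma adjusted p of 0.0654, 0.0441 and 0.0909. The call of 1434502_x_at was lost when any 1 of the 8 arrays was left out. Within replicates 1 and 2 the brightest probe set differed by -0.58 and within replicates 3 and 4 by -1.52.

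Erythroid markers mostly had lower knockout means, of which 2 passed. Of 8 measured of 12 listed markers 7 had lower knockout means, at all 7 the groups did not overlap, and Rhag and Ermap, both red cell membrane proteins, passed in limma, with 0 higher. Over all genes 1.15% passed and at 8.61% the groups did not overlap. Rhag differed by -0.80 ± 0.15 (SE) and Ermap by -0.76 ± 0.12, with limma adjusted p of 0.0480 and 0.0366. The list mean ran from 7.52 to 8.12 in knockout and from 8.45 to 8.55 in wild type livers. Hba-a1 was below the array median in all livers at its probe set. The part of red cell precursors in the Slc4a1 difference was not tested, and in whole liver fewer cells of a type and less RNA per cell cannot be told apart.

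Slc4a3 (AE3), Slc4a5 (NBCe2) and Slc4a10 lay below the array median in all 8 livers and are not shown to be expressed. Slc4a5 differed by 0.34 ± 0.17 (SE), Slc4a10 by 0.18 ± 0.09 and Slc4a3 by 0.10 ± 0.08, with limma adjusted p of 0.490, 0.507 and 0.726. Slc4a8, a sodium-driven chloride-bicarbonate exchanger, differed by -0.05 ± 0.12 and Slc4a11 by 0.17 ± 0.14, with limma adjusted p of 0.933 and 0.722.

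**Figure D2:**
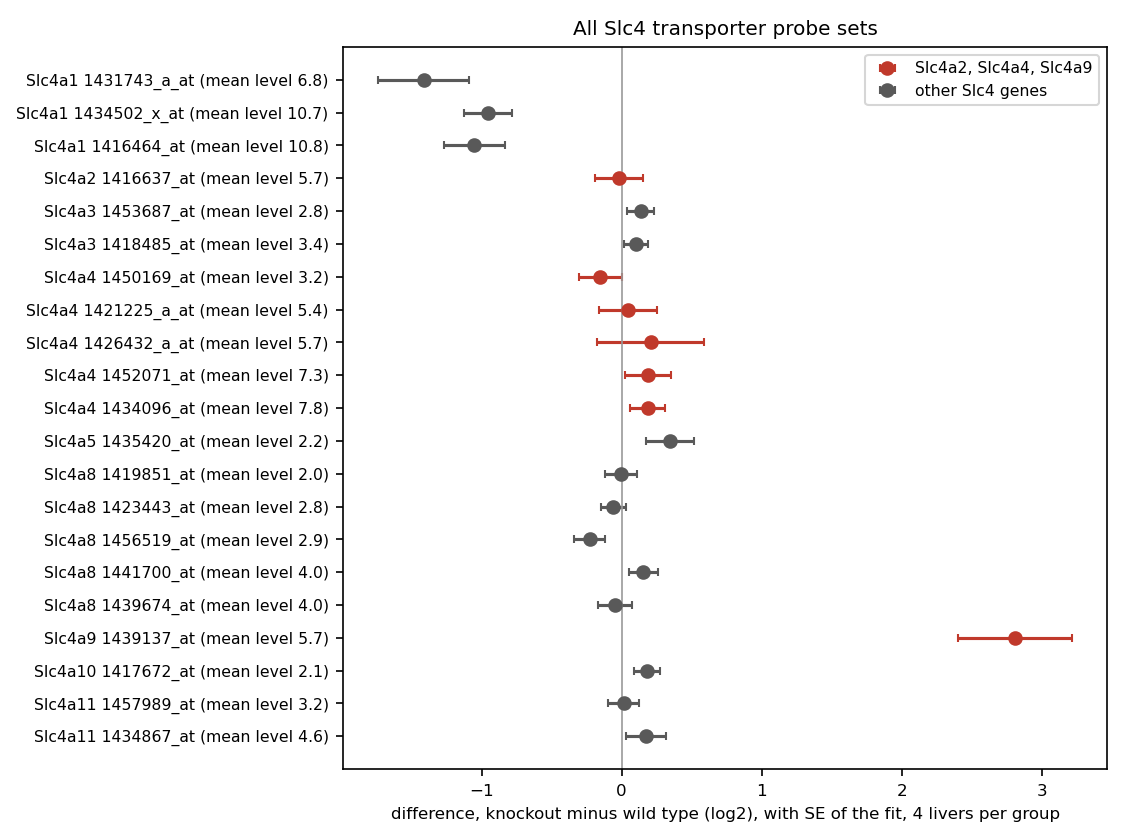
Difference between knockout and wild type livers (log2, horizontal axis, with the SE of the fit, 4 livers per group) at the 7 member probe sets in red and the 14 probe sets of other Slc4 genes in grey. Slc4a9 stands at 2.81, the 3 probe sets of Slc4a1 at -1.42 to -0.95, and the rest between -0.23 and 0.34.

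Most other markers of the intercalated cells that Slc4a9 is known from were dim in both groups. Of 9 measured of 10 listed intercalated cell markers 8 lay below the array median in all 8 livers. Among them were Foxi1, the transcription factor that defines these cells, with means of 2.65 ± 0.05 (SD, n = 4) and 2.62 ± 0.11 in knockout and wild type, and Slc26a4 (pendrin), an anion exchanger, at 2.99 ± 0.20 and 2.83 ± 0.32. Rhbg, an ammonium transporter also present in liver, was the other, at -0.76 ± 0.21 (SE), with a limma adjusted p of 0.156. The mean of the list ran from 2.92 to 3.03 in knockout and from 2.90 to 3.07 in wild type livers. Of 6 markers of other kidney cells 4 lay below the array median in all livers, and the list mean ran from 2.91 to 3.07 and from 2.82 to 2.97.

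Among other genes that move bicarbonate and protons 1 passed the test, a lactate transporter. The lists held 79 genes, of which 74 had a probe set, the other Slc4 genes included. Of these 1 passed in limma, or 1.35%, beside 1.15% of all genes, and 14 had an unadjusted p under 0.05, or 18.9%, beside 14.6% of all genes. The groups did not overlap at 10 of the 74, where 8.61% of all genes did not. The one that passed was Slc16a3 (MCT4), a proton-coupled lactate exporter, with a fall of 0.77 ± 0.12 (SE) and a limma adjusted p of 0.0340, from 4.30 ± 0.20 (SD, n = 4) to 3.53 ± 0.12. Its knockout mean lies below the array medians, and the call held only without knockout 2 and without wild type 2 when 1 array was left out. Slc16a1 (MCT1), the widely expressed lactate carrier of the same family, lay at 9.68 ± 0.19 in knockout and 10.33 ± 0.23 in wild type livers, with a limma adjusted p of 0.0689. It was named after its values were seen. Of the 6 monocarboxylate transporters and their partners 4 had an unadjusted p under 0.05, and the list's median of -0.34 lay furthest from 0 of the 7 lists. The other 2 of these 4, also named after their values were seen, were Bsg (basigin), the chaperone of MCT1 and MCT4, at -0.57 ± 0.16 (SE), and Slc16a7 (MCT2) at 0.36 ± 0.14, with limma adjusted p of 0.175 and 0.354.

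Carbonic anhydrases, which interconvert carbon dioxide and bicarbonate, had 16 measured genes with 0 past the threshold in limma, 4 at an unadjusted p under 0.05 and a median difference of -0.07, with differences from -1.97 to 0.99. The lowest p among them was that of Car13, at -0.66 ± 0.14 (SE) and a limma adjusted p of 0.0689. Car2 differed by -0.66 ± 0.15 with a limma adjusted p of 0.0782. Car1 went the other way, from 7.64 in wild type to 8.63 in knockout livers. Its difference was 0.99 ± 0.45, with groups that overlapped and a limma adjusted p of 0.440. Car3 had the lowest difference, -1.97 ± 0.67, with a limma adjusted p of 0.261. Its knockout livers 1 to 4 lay at 6.25, 5.99, 4.30 and 4.14. Wild type livers 1 to 4 lay at 5.98, 6.07, 8.21 and 8.30, so the genotypes lay apart only in replicates 3 and 4. Car5a differed by -0.85 ± 0.24, with a limma adjusted p of 0.166. Car1, Car2, Car3 and Car5a were picked once these levels were known. Of the 16 carbonic anhydrases 7 had higher and 9 had lower knockout means.

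The Slc26 anion exchangers had 9 measured genes, 1 at an unadjusted p under 0.05 and a median of -0.05. Slc26a1, a sulfate exchanger, had the lowest p, with -0.68 ± 0.27 (SE) and a limma adjusted p of 0.357. The 7 sodium-proton exchangers had a median of -0.06, 1 at an unadjusted p under 0.05, and the lowest p in Slc9a2, which was below the array median in all livers and differed by -0.26 ± 0.10 (limma adjusted p 0.362). The 19 subunits of the vacuolar proton pump had a median of 0.02, 3 at an unadjusted p under 0.05, and the lowest p in Atp6v1c2, also below the median in all livers, at 0.34 ± 0.12 (limma adjusted p 0.269). The other 2 with an unadjusted p under 0.05 were above the median in all livers and had lower knockout means, Atp6v1d at -0.29 ± 0.10 and Atp6v0e at -0.20 ± 0.09, with limma adjusted p of 0.285 and 0.409. The groups did not overlap at 5 of the 19, where 8.61% of all genes did not. These 5 were the 3 subunits just named and, with lower knockout means, Atp6v0b and Atp6v0d1. Apart from Atp6v1c2 these subunits were named after their values were seen. The 11 partners and regulators had a median of -0.09 and 0 at an unadjusted p under 0.05. Ahcyl2, a relative of the NBCe1 activator IRBIT, had the lowest p, with -0.23 ± 0.12 (limma adjusted p 0.501). By the limma test 0 genes of these 4 lists passed.

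**Figure D3:**
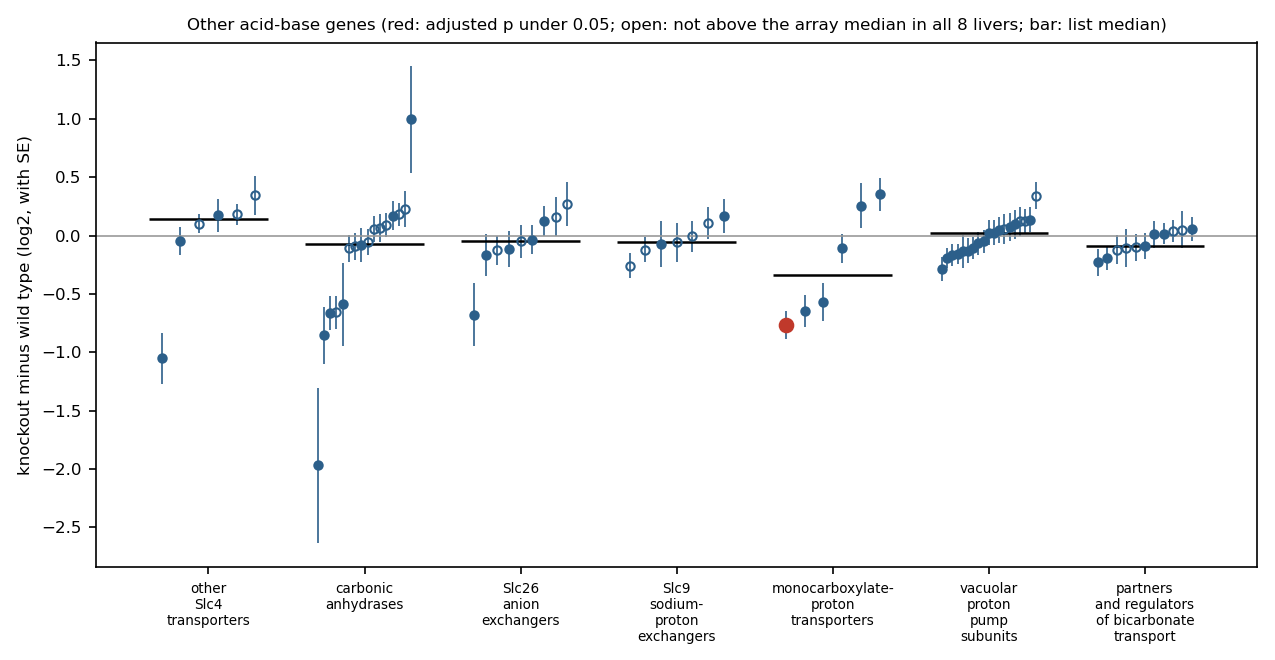
Difference between knockout and wild type livers (log2, vertical axis, with the SE of the fit, 4 livers per group) for 74 measured acid-base genes outside the members, by list. Open points are genes not above the array median in all 8 livers, the black bar is the list median, and the red point, Slc16a3, is the single gene past an adjusted p of 0.05.

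Slc4a9 and the targeted gene Hsd17b4 lie on the same chromosome, number 18, with 101 measured genes between them in the gene order of the assembly GRCm38.p6. Of the 459 measured genes of chromosome 18, 6 passed in limma, or 1.31%, beside 1.15% of all genes and 0.486% to 1.60% on the other 19 chromosomes compared. Without Slc4a9, chosen by this difference, and the targeted Hsd17b4 there were 4 of 457, or 0.875%. These were Tmco6, which rose, and Kif20a, Slc23a1 and Cep76, which fell. Tmco6, a membrane protein gene, rose by 0.81 ± 0.13 (SE), with a limma adjusted p of 0.0366. Kif20a, a kinesin of cell division, fell by 0.82 ± 0.13, Slc23a1, a vitamin C transporter, fell by 0.72 ± 0.14 and Cep76, a centrosome protein, fell by 0.91 ± 0.17, with limma adjusted p between 0.0336 and 0.0499. Each of these 4 calls was lost on leaving out any array of replicates 3 and 4, and the count of 6 was then 1, that of Hsd17b4. Without wild type 1 the count was 3.

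Of the 20 genes nearest to Slc4a9 in that order, 10 on each side, 1 passed in limma, which was Tmco6, 7 measured genes away on the side of Hsd17b4. The groups did not overlap at 3 of the 20, or 15.0%, beside 8.61% of all genes, and 7 of the 20 had an unadjusted p under 0.05, beside 14.6% of all genes. These 3, all higher in the knockout, were Tmco6, Hbegf and Cystm1, the last chosen after its values were seen. Hbegf, a growth factor gene and the nearest measured gene on the side away from Hsd17b4, lay between 5.12 and 6.23 in knockout and between 4.09 and 4.96 in wild type livers. Its difference was 1.09 ± 0.26 (SE), with a limma adjusted p of 0.103. Ankhd1, the nearest on the other side, differed by -0.07 ± 0.14, with a limma adjusted p of 0.918. The median difference of the 20 genes was 0.06. Of the 20 genes nearest to Hsd17b4, 0 passed in limma, 1 had an unadjusted p under 0.05 and the median was -0.03. The knockout of Hsd17b4 and any difference inherited with it on that chromosome cannot be told apart in this design.

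**Figure D4:**
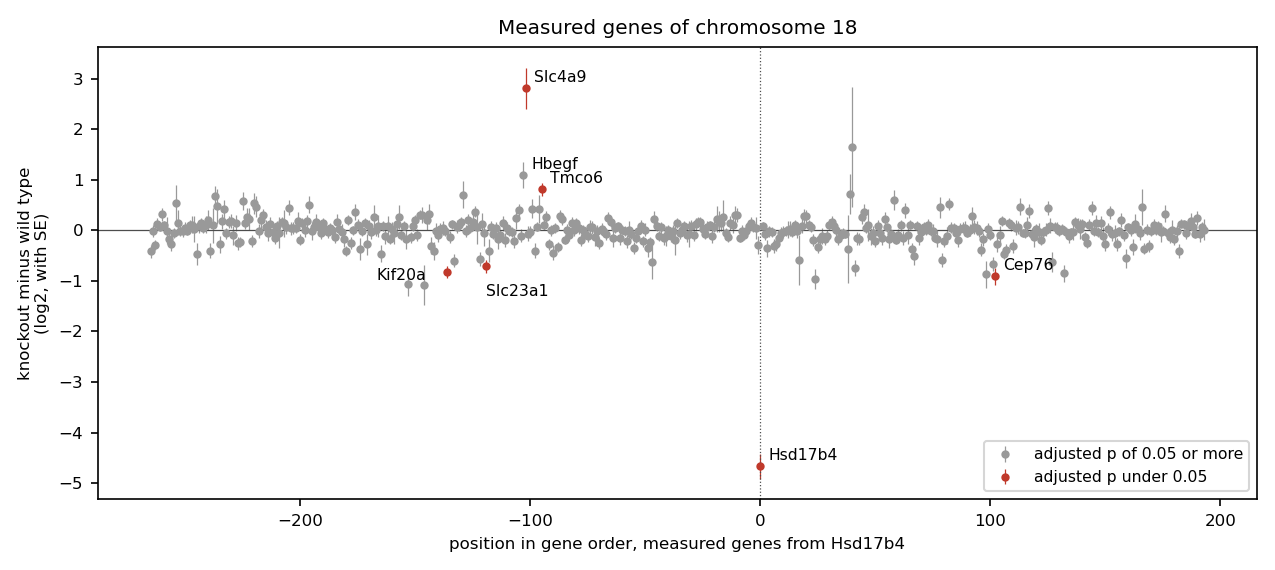
Difference between knockout and wild type livers (log2, vertical axis, with the SE of the fit, 4 livers per group) for 459 measured genes of chromosome 18, placed by their order from Hsd17b4 (horizontal axis, in measured genes) and not by distance. Red points are the 6 genes past an adjusted p of 0.05, with Slc4a9 at 2.81, Tmco6 at 0.81 and Hsd17b4 at -4.66.

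The genes whose levels varied most like Slc4a9 among livers of one genotype were Brap, Pla1a, Snx20, 9530068E07Rik and Vipas39, taken from 9095 genes with a mean above the median of all genes. The measure was Pearson's r over the 8 livers after each genotype's mean was subtracted, and it lay between 0.96 and 0.98, given as a description of the best of many genes on shared arrays. At all 5 the wild type livers 3 and 4 lay below wild type livers 1 and 2, with differences of -0.58 to -0.36. The knockout pairs differed by 0.02 to 0.15. Slc4a9 has this pattern and the genes were picked by likeness to it, so the pattern is no separate result. Brap, a BRCA1-binding ubiquitin ligase, differed between the genotypes by 0.53 ± 0.16 (SE), and 0 of the 5 passed in limma, with adjusted p between 0.199 and 0.962.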

How the data were processed

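Total RNA from 8 livers was extracted with Trizol, biotin-labelled and measured on Affymetrix arrays, per the labels' protocols. The deposited values are log2 levels per probe set. The submitters' processing notes name RMA, with version, settings and build not given in the sources used here. RMA usually brings arrays to a common distribution, and these array medians lie close together, so a change in total RNA could not be seen. Arrays have no read depth, and their number limits the precision.

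Of 45101 probe sets, 64 controls were left out. The platform annotation gives 1 gene to 34945 probe sets, several to 932 and none to 9160, and 34741 matched the GRCm38.p6 gene table by identifier. The probe set with the highest mean stood for its gene (18193 genes). Genotypes were compared with limma 3.58.1 in R 4.3.3 (lmFit, eBayes, two-sided, no covariate), with Benjamini-Hochberg adjustment over 45037 probe sets and a threshold of 0.05. The fit was tested on simulated data. The p-values take the livers as independent, but the labels do not say that the mice were unrelated.

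Members, gene lists and markers were chosen with earlier results of these data known. Named were all Slc4 genes, list members past the threshold or with the lowest p, genes past it on chromosome 18, the genes next to Slc4a9 and the 5 most like it. The markers were those of erythroid, bile duct, hepatocyte, Kupffer, stellate, endothelial, megakaryocyte, neutrophil, kidney and exocrine pancreas cells. In the lists not described with the members, 0 genes passed in limma: 7 Kupffer, 7 stellate, 6 endothelial, 5 megakaryocyte, 7 neutrophil and 4 pancreas genes, with median differences of 0.05, -0.10, -0.13, -0.15, -0.24 and -0.03.

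Tried as alternatives were leaving out dim probe sets, other scalings and variance models, array weights, blocks, a Y-linked covariate, the mean of all probe sets per gene, leaving out each array, and each pair of replicate numbers alone. Values raised to the array median, and the tests of the split by replicate number, were added after seeing the data. Knockout and wild type livers of the same number had correlations of -0.0039, 0.07, 0.17 and 0.26 between their deviations from the group means. Those of different numbers had 0.02 to 0.22 within replicates 1 and 2 or within 3 and 4. Across these sets the correlations were all negative, at -0.24 to -0.03. The single numbers were therefore not taken to pair the livers, but the genotypes shared the split into these sets, which the main fit left out.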

Additional observations from a re-analysis of the deposited data

Results flagged for a closer look

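In 5 of 70 groups of 4 livers looked at 1 liver stood apart from the other 3, where chance gives about 5%. Wild type 1 was low at the Slc4a4 probe set 1434096_at, at 7.42 beside 7.81 to 7.85. Knockout 4 was low at the Slc4a1 probe set 1434502_x_at, at 9.68 beside 10.39 to 10.46. At the second Hsd17b4 probe set, 1455777_x_at, knockout 1 was high at 3.06 beside 1.73 to 1.88 and wild type 3 was high at 8.78 beside 7.80 to 7.96. Wild type 1 was high for Slc9a2, at 2.36 beside 2.06 to 2.10, all below the array medians.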

How the results depend on the processing

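No result turned its direction where it was called. With 343 probe sets, 209 genes, 1 member, 0 other Slc4 genes, 1 acid-base gene and 6 genes of chromosome 18 called as reported, these counts moved by over 1.5 times as follows. Without dim probe sets 1 other Slc4 gene, 2 acid-base genes and 10 genes of chromosome 18 passed. Quantile normalization again gave 137 genes. Array weights gave 914 probe sets, 545 genes, 1 other Slc4 gene, 5 acid-base genes and 17 of chromosome 18. A Y-linked covariate gave 527 probe sets, 320 genes, 1 other Slc4 gene, 4 acid-base genes and 13 of chromosome 18. The mean of all probe sets per gene gave 383 genes, 1 other Slc4 gene, 4 acid-base genes and 11 of chromosome 18. With replicates 1 and 2 against 3 and 4 as a block 1 other Slc4 gene and 2 acid-base genes passed. With the replicate number as a block, which the labels do not say pairs the livers, 15 probe sets, 9 genes, 0 members, 0 acid-base genes and 1 gene of chromosome 18 passed. Replicates 1 and 2 alone, with fewer arrays, gave 4 probe sets, 3 genes, 0 members, 0 acid-base genes, 1 gene of chromosome 18 and a Slc4a9 difference of 1.85. Replicates 3 and 4 alone gave 1 other Slc4 gene, 4 acid-base genes, 11 of chromosome 18 and a Slc4a9 difference of 3.77. With values raised to the array median 0 members passed. Leaving out 1 array gave 9 to 489 probe sets, 5 to 286 genes, 0 to 1 members, 0 to 1 other Slc4 genes, 0 to 3 acid-base genes and 1 to 8 genes of chromosome 18. The cause of these changes was not tested.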
